A study of Mus musculus with 13 samples.

Results

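MicroRNA precursor genes were described in RNA of sorted microglia, the resident macrophages of the brain. They were taken as every entry of the expression table whose symbol starts with Mir followed by a digit, or with Mirlet7. The rule found 245 of 14518 entries, of which 242 were precursor genes and 3 were host transcripts that carry microRNAs (Mir17hg, Mir22hg and Mirlet7bhg). Microglia with CD11b and intermediate CD45 came from C57BL/6 mice of 2 months. RSD mice (n = 7) were given repeated social defeat, exposure of a mouse to an aggressor, in 6 cycles, and CON mice (n = 6) were the controls. The cells were collected when 24 days had passed since the final cycle, and no transgene, Cre or drug is named for either group. The comparison asks which transcripts differed between RSD and CON at that time. The labels do not say whether each sample is 1 animal, so the spread is that between samples.

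A microRNA gene is transcribed as a long primary transcript, often within another gene. Drosha and Dgcr8 cut a hairpin, the precursor, out of it in the nucleus, Xpo5 exports the hairpin, and Dicer1 trims it to the mature microRNA, which an Argonaute protein such as Ago2 carries to target messages. Bases 2 to 8 of the mature microRNA, the seed, pair with the target. The values here count reads within precursor genes in libraries of total RNA depleted of ribosomal RNA. Such reads can come from a primary transcript, from the gene that holds the hairpin or from an overlapping small RNA, and they are not levels of mature microRNAs.

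A mature sequence was found for 212 of the 245 entries, with 343 arms (the strands of a hairpin that can become a mature microRNA), in RefSeq on GRCm38.p6. The first set belongs to entries with the smallest p-values between RSD and CON, and the seed stands in capitals. Mir3535 and Mir684-1 belong to the same set by name only.
mmu-miR-568: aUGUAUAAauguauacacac
mmu-miR-30a-5p: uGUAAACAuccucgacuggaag
mmu-miR-30a-3p: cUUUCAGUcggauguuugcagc
mmu-miR-6412: uCGAAACCauccucagcuacua
mmu-miR-7227-3p: uCUGAAAAgggucaucggcaga
mmu-miR-340-5p: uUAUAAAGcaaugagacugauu
mmu-miR-1894-3p: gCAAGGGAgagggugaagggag
mmu-miR-6935-3p: uGUUCUUUgucuuuccacag

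The second set belongs to abundant entries and to those whose reads moved with another RNA or with 1 library, which are described further on.
mmu-miR-6236: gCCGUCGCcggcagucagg
mmu-miR-3064-5p: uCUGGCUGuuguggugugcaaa
mmu-miR-142b: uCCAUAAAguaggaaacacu
mmu-miR-24-3p: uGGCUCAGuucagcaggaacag
mmu-miR-27a-3p: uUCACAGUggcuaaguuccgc
mmu-miR-6516-5p: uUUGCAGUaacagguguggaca
mmu-miR-511-3p: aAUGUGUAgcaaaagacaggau
mmu-miR-16-5p: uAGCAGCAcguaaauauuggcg
mmu-miR-6353: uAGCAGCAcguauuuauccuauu

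Among the 343 arms, 18 seeds were shared by at least 2 entries. The seed GAGGUAG was shared by 9 entries, namely 8 let-7 precursors and Mir98, which are shown because their mature forms differ outside the seed only.
mmu-let-7a-5p: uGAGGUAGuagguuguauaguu
mmu-let-7c-5p: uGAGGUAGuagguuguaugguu
mmu-let-7d-5p: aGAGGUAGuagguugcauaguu
mmu-let-7e-5p: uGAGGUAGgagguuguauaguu
mmu-let-7f-5p: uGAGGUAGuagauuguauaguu
mmu-let-7g-5p: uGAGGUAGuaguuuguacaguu
mmu-let-7i-5p: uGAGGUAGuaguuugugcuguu
mmu-miR-98-5p: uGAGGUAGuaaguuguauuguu
The seed AGCAGCA was shared by Mir15a, Mir16-1, Mir16-2 and Mir6353, and AAAGUGC by Mir17, Mir20a, Mir93 and Mir106b.

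Each library held 9.76 to 12.3 M reads counted in the entries of the expression table. Beside these, 2 libraries stood apart. In CON 18, the summed level of the 9 border and other macrophage markers in the table was 152826 normalized reads, against 1736 to 2828 in the RSD libraries and 1851 to 2413 in the other CON libraries. The 10 microglial markers summed to 201252 normalized reads in CON 18, against 305624 to 323602 in the RSD libraries and 310503 to 324844 in the other CON libraries. In RSD 8, the deviation of 100 precursor genes from their mean over libraries correlated across genes with the GC content of the hairpin at a Spearman rho of -0.57, whereas RSD 11 gave 0.46, CON 4 gave 0.31 and the other libraries -0.16 to 0.17. In bulk RNA, fewer cells of a type and less RNA per cell cannot be told apart.

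Most microRNA precursor genes were counted at low levels. The mean over 13 libraries was under 10 normalized reads for 139 entries, 10 to 100 for 98 and at least 100 for 8, with a median of 8.45 normalized reads. Counting alone gives an error of 31.6% at 10 reads and 10% at 100 reads. Reads were found in all 13 libraries for 182 of the 245 entries, and the sparsest entry had reads in 4 libraries. The 245 entries together took 801 ± 149 RPM (reads per M recovered reads) in RSD (SD, n = 7) and 755 ± 133 in CON (SD, n = 6). The libraries ran from 666 to 1076 RPM in RSD and from 647 to 981 in CON, so the groups overlapped over most of their range.

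Much of that sum and most of its spread was 1 entry, Mir6236 (chr9:110281287-110281409, GRCm38, plus strand, in no same-strand gene). Mir6236 took 22.05% to 51.2% of the entries' reads in RSD libraries and 15.4% to 50.1% in CON libraries. It alone gave 282 ± 146 RPM in RSD and 246 ± 138 in CON (SD, n = 7 and n = 6). Without it, the sum was 519 ± 11.3 RPM in RSD and 509 ± 33.3 in CON. That remainder differed by less than the spread between the libraries of either group.

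No microRNA gene passed the test between RSD and CON. Of the 245 entries, 106 had enough reads to be kept for the test, and 0 of them passed an adjusted p of 0.05 in limma with Benjamini-Hochberg adjustment, where 0.00% of all 12496 genes tested passed. The smallest adjusted p of an entry was 0.821. At an unadjusted p under 0.05, 7 entries were higher in RSD (2.02% of all genes were) and 2 were lower (1.98% of all genes). In both directions together this was 8.49% of the 106 entries, against 4.00% of all genes. By edgeR's quasi-likelihood test 7 entries were higher and 3 lower at that threshold, where 1.86% of all genes were higher and 3.19% lower (5.06% in all). DESeq2 gave 7 higher (2.15% of all genes) and 3 lower (2.46%), 4.62% of all genes in all. It called 0.0160% of all genes after adjustment and no microRNA gene, and edgeR called none. In limma-voom with quality weights, 14 entries were higher (5.19% of all genes) and 2 lower (4.21%), where 9.40% of all genes had such a p. With no filter, 10 of 245 were higher (1.88% of all table entries) and 3 lower (2.04%), where 3.92% passed.

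A log2 difference above 0, which means a higher level in RSD, was found for 66 of the 106 entries, against 51.4% of all genes. The median log2 difference was 0.09 over the 106 entries and 0.0057 over all genes tested. Over all 245 entries with no filter, 137 were above 0 and the median was 0.06, against a median of -0.0015 over all table entries. The differences of the 106 ran from -0.68 to 0.91, with a median SE of 0.30 where all genes had 0.13. For 0 of the 106 entries did the RSD and CON libraries separate without overlap, as 0.0320% of all genes did upward and 0.0320% downward.

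**Figure D1:**
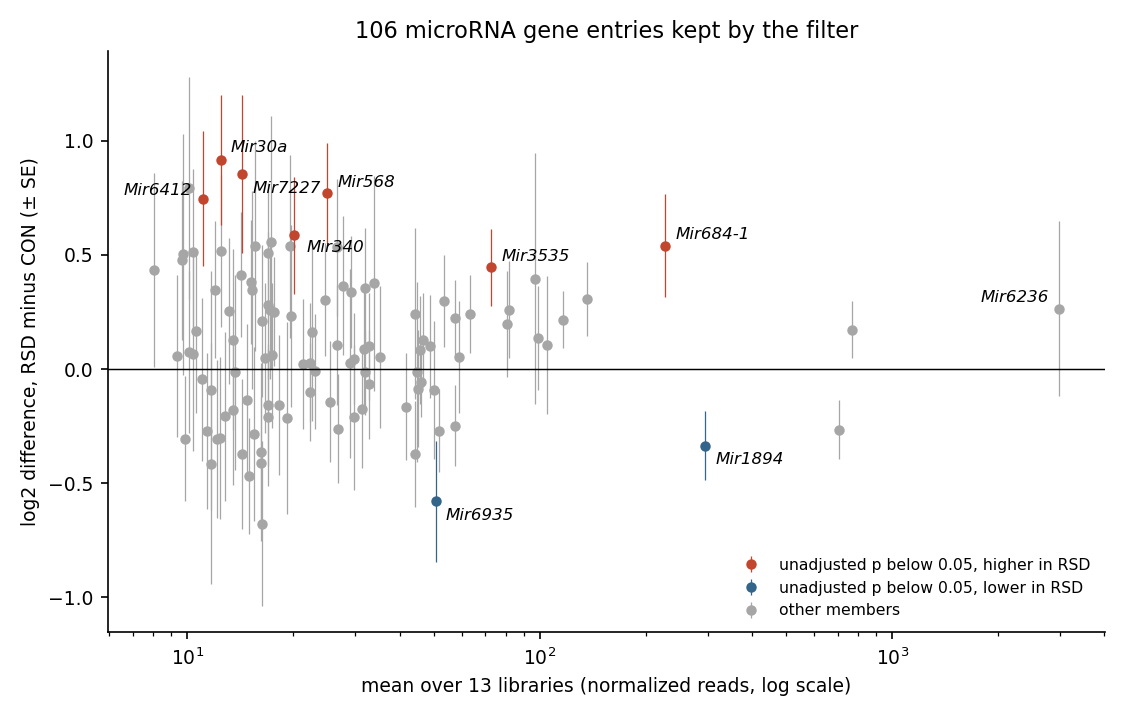
Log2 difference between RSD and CON (RSD minus CON, points, with SE as bars) against the mean over 13 libraries in normalized reads (log scale) for the 106 microRNA gene entries kept. The 7 red and 2 blue entries have an unadjusted p under 0.05, none passes after adjustment, and the bars are wide where the mean is near 10 reads.

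The 106 entries were sorted by where the precursor lies. Of all 245, 141 lie in an intron of a gene on the same strand, 42 in an exon, 17 across the edge of an exon and 41 in no such gene. Of the 52 intronic entries kept, 32 had a difference above 0 (51.4% of all genes did), with a median log2 difference of 0.06. Of the 28 kept that have no host, 20 were above 0, with a median of 0.12. Of the 18 exonic entries kept, 8 were above 0, with a median of -0.13.

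Mir568 (chr16:43640655-43640737, plus strand) had the smallest p. It lies in an exon of Zbtb20, a transcriptional repressor. Its lowest, median and highest libraries were at 16.6, 31.1 and 46.8 normalized reads in RSD, against 15.3, 17.0 and 20.4 in CON. All RSD libraries but RSD 10 were above every CON library, and RSD 8 was the highest. The log2 difference was 0.77 ± 0.22 (SE, limma, adjusted p = 0.821). Zbtb20 itself gave -0.06 ± 0.09.

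Mir30a (chr1:23272269-23272339, plus strand) belongs to a family with the seed GUAAACA, which Mir30c-1 shares among the 343 arms found. For Mir30d, of the same family by name, no arm with this seed was among those found. Mir30a lies in no same-strand gene. It ran from 12.7 through a median of 14.8 to 20.9 normalized reads in RSD, against 5.39, 6.75 and 17.1 in CON. Only CON 5 reached the RSD range, and the other CON libraries stayed at 9.28 or below. The log2 difference, the largest among the 106, was 0.91 ± 0.28 (SE, limma, adjusted p = 0.821).

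Mir3535 lies across an exon edge of Ncl, the gene of nucleolin, and overlaps a small nucleolar RNA gene, so the reads of these cannot be told apart. It ran from 67.4 through 79.4 to 101 normalized reads in RSD, against 44.5, 55.8 and 89.9 in CON. CON 18 and CON 19 lay within the RSD range and the other CON libraries below it. Its log2 difference was 0.45 ± 0.17 (SE, limma, adjusted p = 0.821), and 0.75 in sample numbers 1 to 8 (RSD 2, 7 and 8 against CON 1, 4 and 5) but 0.15 in numbers 10 to 19. Ncl gave 0.18 ± 0.12.

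Mir684-1 (chr2:80628705-80628790, minus strand), the one with the most reads of the 7, lies in no same-strand gene and opposite to Dusp19 and Nup35. It ran from 144 through 294 to 345 normalized reads in RSD, against 111, 170 and 247 in CON. RSD 10 and RSD 13 lay within the CON range, and the other RSD libraries were above every CON library. Its log2 difference was 0.54 ± 0.23 (SE, limma, adjusted p = 0.821).

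Mir7227 (chr4:133717050-133717108, minus strand), in an intron of the chromatin remodelling gene Arid1a, averaged 18.1 ± 6.64 normalized reads in RSD and 9.78 ± 4.75 in CON (SD). Mir6412 (chr10:122648339-122648435, plus strand) averaged 13.8 ± 4.36 in RSD and 7.92 ± 2.76 in CON (SD). Their log2 differences were 0.85 ± 0.35 and 0.75 ± 0.30 (SE), and both groups overlapped for each. At such levels a few reads make the difference. Mir340, in an intron of Rnf130, a ubiquitin ligase gene, was outside the naming rule and is given because it completes the 7. It averaged 24.3 ± 11.7 normalized reads in RSD and 15.03 ± 3.04 in CON, with RSD 8 alone at 50.01.

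On the lower side, Mir1894 (chr17:35917889-35917969, plus strand) lies in an exon of Ppp1r10, a regulator of nuclear protein phosphatase 1. It ran from 189 through 276 to 313 normalized reads in RSD, against 231, 323 and 442 in CON. The lowest values were RSD 8 and RSD 2, and the other RSD libraries lay within the CON range. A log2 difference of -0.34 ± 0.15 (SE, limma, adjusted p = 0.821) resulted, with -0.21 without CON 18 and RSD 8, -0.74 in sample numbers 1 to 8 and 0.0033 in numbers 10 to 19. Ppp1r10 gave -0.06 ± 0.08.

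Mir6935 (chr11:120347350-120347413, minus strand) lies in an exon of Actg1, the gene of gamma-actin. It ran from 23.2 through 38.9 to 66.2 normalized reads in RSD, against 36.5, 60.0 and 103 in CON. CON 18 was the highest library and RSD 7 the lowest. Between the groups the log2 difference was -0.58 ± 0.27 (SE, limma), and -0.34 without CON 18 and RSD 8. It was -1.01 in numbers 1 to 8 and -0.26 in numbers 10 to 19. Without both libraries, 7 of 109 entries were higher and 0 lower at an unadjusted p under 0.05, where 2.46% and 2.43% of all genes were (4.88% in all).

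Mir142b (chr11:87756841-87756955, minus strand) lies on the strand opposite to Mir142, a microRNA typical of blood and immune cells. It ran from 535 through 602 to 787 normalized reads in RSD, against 616, 727 and 1111 in CON. CON 4 was above all other libraries, and the remaining values overlapped. Mir142b gave a log2 difference of -0.27 ± 0.13 (SE, limma, adjusted p = 0.821), which was -0.16 without CON 4, -0.53 in sample numbers 1 to 8 and -0.026 in numbers 10 to 19. The use of strand in counting is not given in the sources used here, so reads of Mir142b and of the transcript opposite cannot be told apart. Mir133a-1, on the strand opposite to Mib1, gave -0.68 ± 0.36, and Mir1b, which lies in an intron of Mib1, gave -0.47 ± 0.25 (log2, SE). The host transcript Mirlet7bhg gave -0.37 ± 0.23 (log2, SE). In numbers 1 to 8 these differences were 0.31, -0.78 and -0.61, in the same order, and in numbers 10 to 19 they were -1.55, -0.26 and -0.18. Without RSD 8, Mirlet7bhg gave -0.19.

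**Figure D2:**
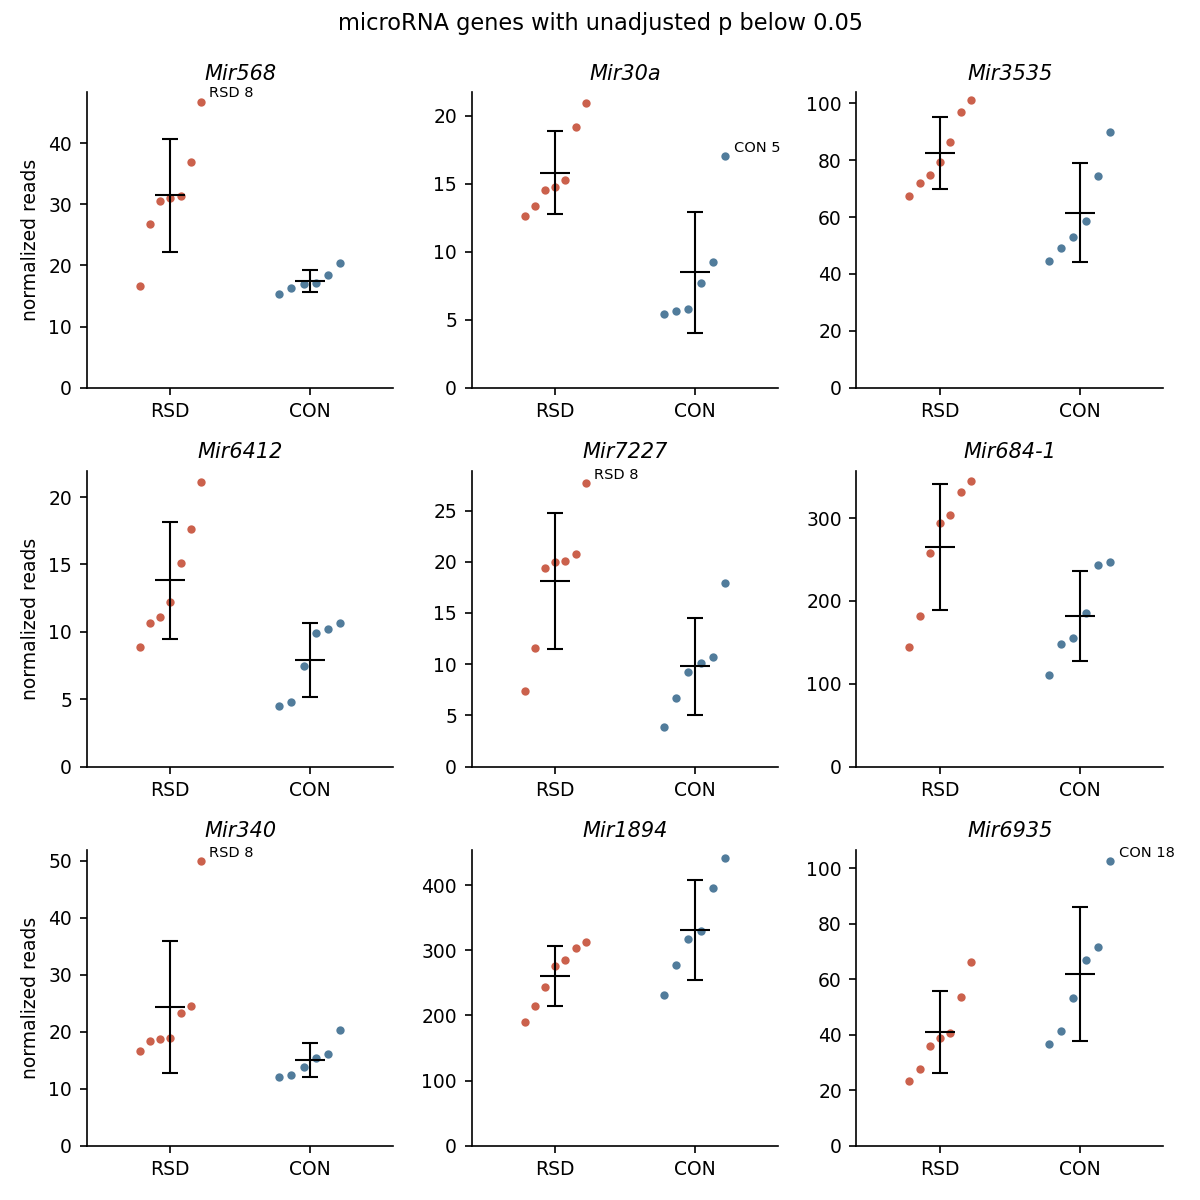
Normalized reads per library (points, red RSD left and blue CON right) of the 9 entries with an unadjusted p under 0.05, with mean and SD as bars. In each panel some RSD and CON libraries overlap, and RSD 8 is the highest point for Mir568, Mir7227 and Mir340.

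The range of sample numbers moved these counts. In numbers 1 to 8, 14 of 105 entries were higher and 5 lower at an unadjusted p under 0.05, where 12.0% and 10.2% of all genes were (22.2% in all). In numbers 10 to 19, 5 of 113 were higher and 2 lower, where 2.98% and 2.43% of all genes were (5.41% in all). The labels do not say what the sample numbers stand for. The summed level of neutrophil and monocyte markers was higher in numbers 1 to 8 than in 10 to 19. The 7 of 8 listed markers that are in the table took 1079 to 1515.5 normalized reads in RSD 2, 7 and 8, against 525.7 to 1066 in CON 1, 4 and 5. In numbers 10 to 19 they took 350 to 452 in RSD and 346 to 392 in CON. S100a8, a marker gene of neutrophils, was at 143 to 304 in RSD and 44.9 to 134 in CON in numbers 1 to 8, and at 0 to 34.3 in RSD and 0 to 1.13 in CON in numbers 10 to 19. Ccr2, a receptor gene of monocytes, was at 295 to 357 in RSD and 299.9 to 347 in CON over both ranges. The part of these cells in the counts and differences of either range was not tested.

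Among the most abundant entries, Mir3064 (chr11:106782693-106782759, minus strand) lies in an exon of Ddx5, an RNA helicase that works with Drosha. It averaged 816 ± 161 normalized reads in RSD and 718 ± 95.5 in CON (SD), with 0.17 ± 0.12 as its log2 difference, and Ddx5 gave 0.15 ± 0.08. Without RSD 8 these were 0.10 and 0.097, and Mir3064 gave 0.096 without CON 1. In numbers 1 to 8 Mir3064 gave 0.47 and Ddx5 0.31, against -0.08 and 0.0062 in numbers 10 to 19. Mir17hg, which carries the Mir17 cluster, averaged 150.3 ± 42.1 normalized reads in RSD, against 119.7 ± 23.4 in CON, with a log2 difference of 0.31 ± 0.16. RSD 8, at 239, was far above the next RSD library at 163, and the log2 difference was 0.19 without RSD 8 and 0.16 without CON 18 and RSD 8. Mir703 averaged 125 ± 24.0 in RSD and 106 ± 7.88 in CON, with a log2 difference of 0.22 ± 0.12. RSD 8 was the highest library of Mir703, and without it the log2 difference was 0.14. It was 0.41 in numbers 1 to 8 and 0.069 in numbers 10 to 19.

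Precursors that are transcribed together were also summed, in clusters chosen with the data known and without a test. Mir23a, Mir27a and Mir24-2 lie next to each other on chromosome 8 and summed to 267 ± 94.0 normalized reads in RSD and 235 ± 56.4 in CON (SD). RSD 8 was the lowest library of this sum at 129, and RSD 12 the highest at 420. Mir99a, Mirlet7c-1 and Mir125b-2 summed to 97.7 ± 21.2 in RSD and 111 ± 18.0 in CON, with the highest value, 146, in CON 18. Mir17, Mir18, Mir19a and Mir20a summed to 26.01 ± 3.54 in RSD and 25.2 ± 9.25 in CON.

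The 8 let-7 precursors, which share the seed shown above, summed to 134 ± 14.4 normalized reads in RSD and 143 ± 25.9 in CON (SD). The libraries ran from 121 to 162 in RSD and from 123 to 193 in CON, and the 193 was CON 18. Mirlet7c-1 held the most reads of the 8, with 46.5 in RSD and 58.0 in CON (log2 difference -0.27 ± 0.18). It is named outside the naming rule. CON 18 held 98.0 of its normalized reads, above 59.0 in the next library, and without CON 18 the log2 difference was -0.11. It was 0.096 in numbers 1 to 8 and -0.59 in numbers 10 to 19.

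Of 40 genes listed as microRNA genes of myeloid cells, 19 were in the table and 9 were kept. None passed the test or an unadjusted p of 0.05, where 4.00% of all genes had such a p. Of the 9, 8 had a log2 difference above 0, where 51.4% of all genes did, with a median of 0.14. Those with too few reads to be kept leaned the other way by their means. Mirlet7e, Mir125a, Mir181a-1, Mir222, Mir511, Mir17, Mir16-2 and Mir30c-1 averaged lower in RSD than in CON. Only Mir18 (5.34 against 4.22 normalized reads) and Mir19a (5.68 against 5.12) averaged higher. CON 18 was the highest library for Mir222, Mir511, Mir16-2 and Mir30c-1. The 9 were not all separate loci. Mir23a, Mir27a and Mir24-2 lie together, Mir20a lies in Mir17hg, and Mir15a lies beside Mir16-1. Mir15a was the one below 0 (-0.16 ± 0.27, SE), and Mir22hg (0.05 ± 0.25, SE) fell below 0 by edgeR and DESeq2. Mir16-1, which with Mir15a lies in Dleu2, averaged 68.2 ± 14.7 normalized reads in RSD, against 57.6 ± 12.3 in CON, with 0.24 ± 0.17 as its log2 difference, and 0.16 without RSD 2 or without CON 19. Mir27a averaged 104 ± 33.1 in RSD and 93.3 ± 29.7 in CON, and Mir24-2 averaged 113 ± 49.8 in RSD and 95.8 ± 23.1 in CON. Mir22hg averaged 58.5 ± 13.3 in RSD and 59.9 ± 27.6 in CON. Of 25 microRNA genes listed for other cell types, such as neurons and muscle, only Mir133a-1 was in the table, at 12.4 ± 6.17 in RSD and 20.9 ± 11.6 in CON. CON 18 was its highest library, at 41.7 against 24.5 in the next. Mir133a-1 lies opposite to Mib1, and its own host Mir133a-1hg is not in the table. As the use of strand is not given, its reads and those of Mib1 cannot be told apart.

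For 59 of the entries kept, the gene that holds the precursor was tested too. The sign of the difference was the same in precursor and host for 29 of the 59. The median size of the log2 difference was 0.25 for the precursors and 0.09 for their hosts. Such a size grows with the error of an entry, and the median SE was 0.30 over the 106 entries kept against 0.13 over all genes. The sizes therefore do not show whether precursors moved more than their hosts. Of the 57 hosts, 2 had an unadjusted p under 0.05, where 4.00% of all genes did. Mir568 and Zbtb20, or Mir7227 (0.85 ± 0.35) and Arid1a (-0.05 ± 0.07), are pairs of unlike values, and Mir3064 and Ddx5 are a pair of like values. The difference between a precursor and its host was not tested.

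Levels per length were compared between each precursor and the exons of its host. Precursor reads were divided by the length of the hairpin alone. How reads that lie only partly in a hairpin were counted is not given, and such reads weigh more in a short entry. Only precursors with an entry in the table enter, and the sparsest entry had 16 reads over all libraries. Weaker precursors may thus be missing from the medians below. Intronic precursors had a median of 65.8% of their host's normalized reads per kb (n = 129), and 44 of them were above the host. Exonic precursors had a median of 118% (n = 28, 16 above the host), and those across an exon edge 42.5% (n = 17, 4 above). Only 4 intronic precursors were under 10% of their host. The lowest was Mir6983, at 3.50% of Csf1r, the receptor gene on which microglia depend.

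At the other end, among others, Mir568 had 1292% of the reads per kb of Zbtb20, Mir16-1 had 1091% of Dleu2 and Mir1894 had 1071% of Ppp1r10. The highest precursor across an exon edge, not named here, had 1270% of its host. Above these were Mir6364 in AU021092, Mir3473f in Bcl2, and Mir466g and Mir466f-3 in an intron of Sfmbt2. The entries in Sfmbt2 belong to families of near-identical copies whose reads could be split in counting, so their levels are uncertain. Exons of hosts were joined over all annotated transcripts, so a host's level per kb is lowered where it has long exons that are little used. Mir3064 had 184% of Ddx5.

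**Figure D3:**
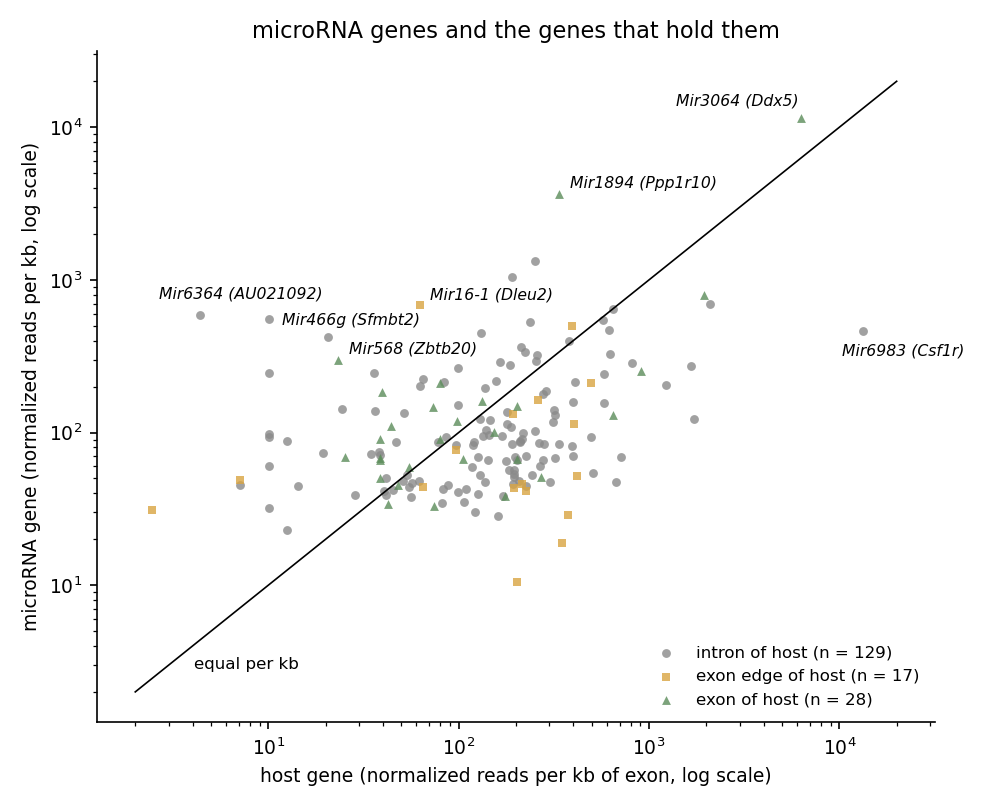
Normalized reads per kb of each microRNA gene (vertical, log scale) against its host gene (horizontal, log scale), by where the precursor lies, with the line of equal reads per kb. Intronic precursors lie on both sides of the line with a median of 65.8% of the host, and Mir568, Mir16-1 and Mir1894 lie about a factor of 10 above it.

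A further 10 entries overlap a gene of a small nucleolar or Cajal body RNA, RNAs that guide the modification of other RNAs, and 5 of them were kept. Their level was set beside that of 102 other entries named Snord, Snora or Scarna over the 13 libraries, together with Mir6236 and the ribosomal precursor RNA Rn45s. Any entry of a small RNA gene that a precursor overlaps, such as Snora34, was not taken out of the 102. These 6 relations were chosen after the values were seen. Mir6516, which overlaps a Cajal body RNA gene, ran from 1.73 to 15.7 RPM in RSD and from 2.82 to 10.1 in CON. It followed the other small RNAs, with Pearson's r of 0.959 and Spearman's rho of 0.945 (permutation p = 1e-05 for each, the smallest that 100000 permutations can give, adjusted 6e-05). Without RSD 8 and CON 5, the samples farthest from the median, r was 0.945. It was 0.950 in sample numbers 1 to 8 and 0.944 in numbers 10 to 19.

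Mir1291, which overlaps Snora34, gave r of 0.816 and rho of 0.731 (permutation, adjusted p = 0.00182 and 0.00875), with 0.939 in numbers 1 to 8 and 0.607 in numbers 10 to 19. Mir3068 gave 0.831 and 0.758 (adjusted p = 0.00182 and 0.00764), with 0.784 and 0.661 in the same ranges. Without RSD 8 and CON 5, r was 0.767 for Mir1291 and 0.732 for Mir3068. Mir3535 (r = 0.288, rho = 0.258, adjusted p = 0.348 and 0.403) and Mir7650 (r = -0.283, rho = -0.253, adjusted p = 0.348 and 0.403) did not pass. In the ranges 1 to 8 and 10 to 19, r was -0.219 and 0.692 for Mir3535 and -0.195 and -0.311 for Mir7650. Mir3535 gave -0.456 within RSD and 0.911 within CON, and Mir7650 gave -0.554 within RSD and -0.375 within CON (n = 7 and n = 6). The log2 differences between RSD and CON were 0.40 ± 0.55 for Mir6516 and 0.38 ± 0.47 for Mir1291, each smaller than its SE.

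Mir6236 followed Rn45s, with r of 0.822 and rho of 0.769 (permutation p = 0.00056 and 0.00296, adjusted 0.00168 and 0.00764). Without RSD 8 and RSD 11 r was 0.772, and it was 0.761 in numbers 1 to 8 and 0.932 in numbers 10 to 19. Mir6236 itself ran from 1722 through 2557 to 6376 normalized reads in RSD, against 1111, 2570 and 5401 in CON. RSD 11, CON 1 and RSD 7 were the highest libraries. For Mir6236 the log2 difference was 0.26 ± 0.38 (SE, limma, adjusted p = 0.864), with -0.37 in numbers 1 to 8 and 0.89 in numbers 10 to 19. With single libraries left out it ran from 0.041 (without CON 18) to 0.50 (without CON 1).

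**Figure D4:**
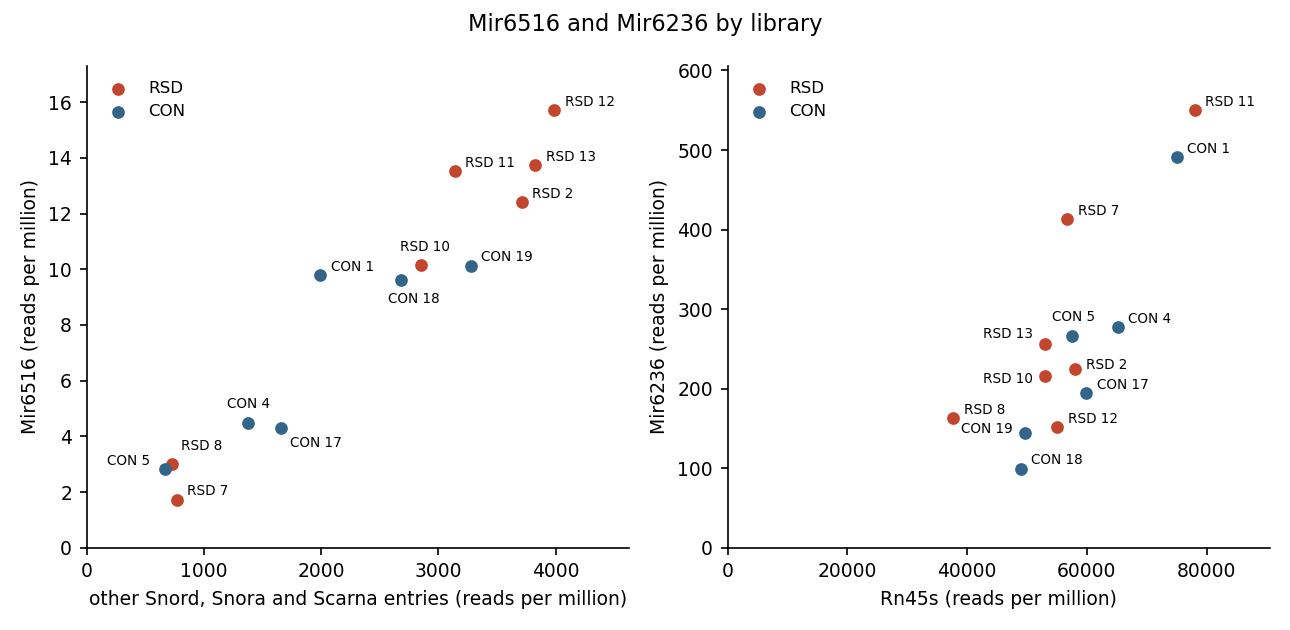
Left, Mir6516 against the sum of 102 other Snord, Snora and Scarna entries, and right, Mir6236 against Rn45s, in RPM for each library (red RSD, blue CON). Both rise together over the libraries (r = 0.959 and r = 0.822), and RSD and CON libraries are mixed along each trend.

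Some precursors were high in 1 library. In 7 entries, chosen after the values were seen, the highest library had at least 20 reads and at least 2 times the next. Mir511 lies in an intron of Mrc1, the mannose receptor gene of border macrophages. It had 84.5 normalized reads (75 reads) in CON 18, against at most 7.45 in any other library. Mrc1 had 12409 in CON 18 and 165 to 405 in the others. The macrophage markers given above were also high in that library, and their part in this value was not tested.

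Mir7-1, in an intron of Hnrnpk, had 103 normalized reads in CON 18, against 20.4 to 46.5 elsewhere, while Hnrnpk had 4266 there and 3399 to 5558 in the others. Mir6353, in an intron of Pid1, had 62.0 in CON 18 and 17.1 to 29.6 in the others. Its host was at 929.7 in CON 18, above 404 to 575 in the others. So the host was the highest in CON 18 for Mir511 and Mir6353 but not for Mir7-1. CON 18 was the highest library for 39 of the 245 entries, RSD 12 for 28, RSD 8 for 27 and each of the others for 12 to 21.

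Mir186, Mir146 and Mir340 were highest in RSD 8, at 52.1, 55.3 and 50.01 normalized reads. The highest of the other libraries were at 22.1, 26.7 and 24.5. The GC content of these hairpins was 33.8%, 40.0% and 37.8%. In RSD 8 the deviation fell as hairpin GC content increased, with the rho given above, and the part of GC content in these values was not tested. Zranb2, the host of Mir186, was also highest in RSD 8, at 762 against 499.8 to 637, whereas Rnf130, the host of Mir340, was at 1942 against 1677 to 2048. Mir30d was highest in RSD 12, at 22.2, against 1.92 to 10.5 in the others.

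**Figure D5:**
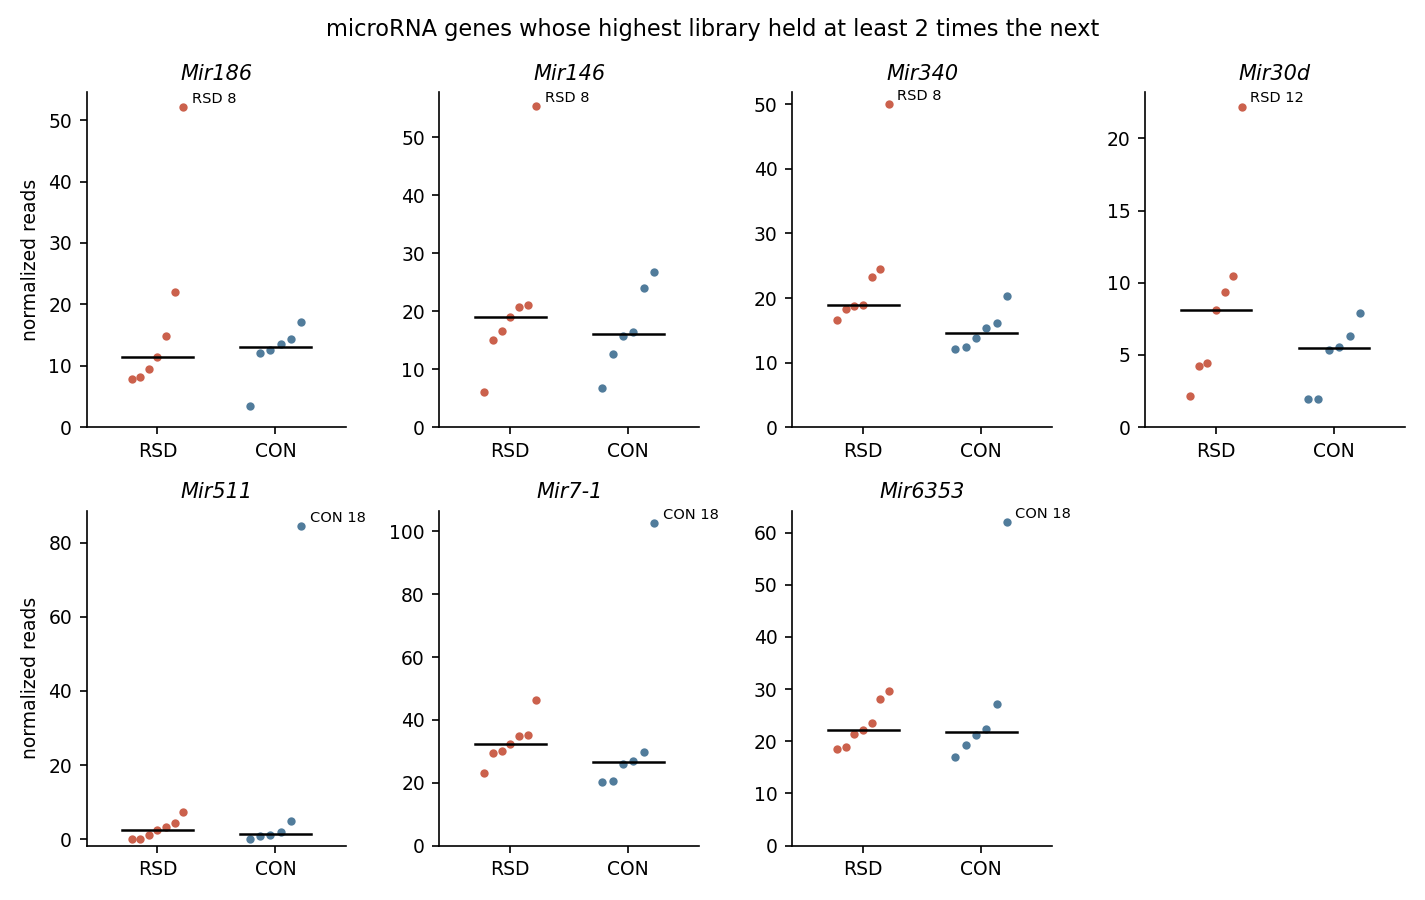
Normalized reads per library (points, red RSD left and blue CON right, with lines at group medians) of the 7 entries whose highest library had at least 2 times the next. Mir186, Mir146 and Mir340 peak in RSD 8, Mir30d in RSD 12, and Mir511, Mir7-1 and Mir6353 in CON 18.

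Of 57 symbols put on a list of genes that make, carry or use microRNAs, 53 were in the table and 52 were kept. The list and its counts include Sdf4 (log2 difference 0.05 ± 0.07, SE), whose role with microRNAs is not established. Tut4, Tut7 and Tent2 were listed beside their older names Zcchc11, Zcchc6 and Papd4, under which the table holds them. Only Lin28b was missing under any listed name. Of the 52, 0 passed the test, where 0.00% of all genes did. At an unadjusted p under 0.05, 2 were higher and 3 lower, where 2.02% and 1.98% of all genes were. The log2 difference was above 0 for 34 of the 52, where 51.4% of all genes had such a difference. Its median over the 52 was 0.06, and that median was -0.03 in sample numbers 10 to 19.

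Of the core enzymes, Drosha, the nuclear nuclease, averaged 654 ± 39.2 normalized reads in RSD and 622 ± 59.7 in CON (SD), and its log2 difference was 0.08 ± 0.07 (SE). Its partner Dgcr8 averaged 566 ± 62.0 in RSD and 558 ± 33.3 in CON (0.01 ± 0.08). Dicer1 averaged 2180 ± 239.7 in RSD and 2068 ± 92.4 in CON (0.07 ± 0.07). The exporter Xpo5 gave -0.04 ± 0.07, and the Argonaute gene Ago2 -0.05 ± 0.07. Each of these differences was about 1 SE or less.

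The smallest p-values in this list belonged to Gemin4, Hsp90ab1 and Dcp2. Gemin4, part of a complex with Argonaute proteins, ran from 73.4 through 111 to 135 normalized reads in RSD, against 122, 127 and 147 in CON (log2 difference -0.28 ± 0.13). RSD 8 was the lowest, and only RSD 10 reached the CON range. Without CON 18 and RSD 8 it gave -0.18, with -0.46 in numbers 1 to 8 and -0.15 in numbers 10 to 19. Hsp90ab1, a chaperone that helps to load Argonaute, ran from 7165 through 11231 to 13942 in RSD, against 4960, 6502 and 11998 in CON (0.54 ± 0.23). CON 17, CON 18 and CON 19 lay within the RSD range. The log2 difference of Hsp90ab1 was 0.80 in numbers 1 to 8 and 0.21 in numbers 10 to 19. Dcp2, a decapping enzyme, averaged 1161 ± 135.5 in RSD and 1011 ± 107 in CON (0.20 ± 0.09), and 0.08 without CON 18 and RSD 8. The adjusted p of each was 0.821 (limma).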

How the data were processed

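Values in the deposited table are a signal per gene and library. They are reads over a size factor, as seen from the values: 100% of them were whole multiples of 1 step within 0.01 reads, so reads were recovered. The authors used STAR, mm10 and DESeq2, per the submitters' processing notes. Tool versions, read counter, annotation and strand setting: not given in the sources used here. RSD (n = 7) was compared with CON (n = 6) by limma 3.58.1 on log2(value + 1), using trended, robust variances, two-sided. Benjamini-Hochberg adjustment ran over 12496 genes kept by edgeR's filterByExpr on recovered reads (minimum count 10, minimum total 15), with a threshold of 0.05. The log2(value + 1) scale understates differences of low genes. edgeR 4.0.16 and DESeq2 1.42.0 on recovered reads, limma-voom, other pseudocounts, no filter, TMM factors and libraries left out were alternatives (R 4.3.3). The fit was tested on simulated data. Recovered reads summed to 9.76 to 12.3 M per library over the entries of the deposited table, which is not the sequencing depth.

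Positions and hosts came from GENCODE M21 (GRCm38, also called mm10). By symbol 236 entries matched, 8 through RefSeq and 1, Mir1940, not at all. Hairpin GC content was found for 100 of the 106 entries kept. Sequences are RefSeq's. Summed reads carry no test. The entries and lists were chosen with earlier results of these data known. Named were the 6 entries of smallest p in each direction, the 8 of highest mean, up to 5 of each microRNA list, their hosts, 5 fixed processing genes and the 3 of smallest p. Correlations used 100000 permutations (scipy 1.17.1).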

Additional observations from a re-analysis of the deposited data

Results flagged for a closer look

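A sample far from the others of its group, by Dixon's criterion at the 95% level, was found in 7 of 78 groups of values tested. Chance gives about 1 in 20 for a single test. The 78 tests share the same 13 libraries and are not independent, so the count cannot be weighed against that rate. RSD 8 was the lowest RSD library for Mirlet7bhg, at 17.0 normalized reads where the next was 38.8. It was the highest RSD library for Mir17hg, at 239 where the next was 163, for Dicer1, at 2679 where the next was 2285, and for Dcp2, at 1446 where the next was 1217. CON 18 was the highest CON library for Zbtb20, the host of Mir568, at 927 where the next was 729.7, and the lowest for Dcp2, at 806.9 where the next was 1002. CON 5 was the highest CON library for Mir30a, at 17.1 where the next was 9.28, and the log2 difference of Mir30a without one library ran from 0.82 to 1.12.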

How the results depend on the processing

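No paired analysis was possible because RSD and CON samples share no sample numbers. No microRNA gene and no processing gene passed the adjusted threshold under any alternative run, and DESeq2 called 2 genes in all. At an unadjusted p under 0.05, limma-voom with quality weights gave 14 entries higher, numbers 1 to 8 gave 14 higher and 5 lower, and 0 were lower without CON 18 and RSD 8. Leaving out single libraries gave 4 to 9 higher and 0 to 3 lower (4 higher without RSD 8 or CON 17, 0 lower without RSD 2 or CON 4), where 1.32% to 2.72% of all genes were higher and 1.28% to 2.53% lower. Of all genes, 1.49% were higher without RSD 8 and 2.65% without CON 17, and 1.28% were lower without RSD 2 and 1.29% without CON 4. The same fits gave a median log2 difference of 0.049 to 0.13, and a difference in summed RPM (RSD minus CON) of 0.893 to 91.7. That difference was -75.02 in numbers 1 to 8 and 163 in numbers 10 to 19. The median of the processing genes was -0.025 in numbers 10 to 19. Of 36 named log2 differences, 18 changed sign under some alternative, with 33 such values, and the cause was not tested. In numbers 1 to 8 these were Mir133a-1 at 0.31, Mir6236 at -0.37, Mir24-2 at -0.42, Mir27a at -0.093, Mir22hg at -0.039, Zbtb20 at 0.010, Ppp1r10 at 0.014 and Dleu2 at 0.33. In numbers 10 to 19 they were Mir1894 at 0.0033, Mir3064 at -0.081, Drosha at -0.062, Dgcr8 at -0.10, Dicer1 at -0.060, Ncl at -0.066, Arid1a at 0.0086, Actg1 at 0.11 and Mib1 at -0.066. Mir22hg was at -0.038 by edgeR and -0.035 by DESeq2, and limma-voom gave Dgcr8 -0.00053 and Ago2 0.031. Without CON 18 and RSD 8, Dgcr8 was at -0.033, Ago2 at 0.023 and Zbtb20 at 0.00032. With single libraries left out, Mir24-2 ran from -0.037 (without RSD 12) to 0.30, Mir27a from 0.027 (without RSD 12) to 0.27, Mir22hg from -0.12 to 0.24, Dgcr8 from -0.032 to 0.048, Ago2 from -0.078 to 0.00016, Zbtb20 from -0.099 to 0.0042 and Dleu2 from -0.13 to 0.016. Without RSD 8, Ncl gave 0.10, Actg1 -0.11 and Dicer1 0.020, and without CON 1 Drosha gave 0.046. Mir6412 had too few reads to be kept in numbers 1 to 8. The median SE of the 106 entries kept was 0.30.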

Other observations

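Some precursor genes with too few reads to be tested were highest in CON 18. Mir222, whose mature form is known from proliferating and activated cells, had 13.5 normalized reads (12 reads) in CON 18, against 0 to 2.32 in the other libraries. Mir16-2 had 21.4 in CON 18 and at most 9.58 elsewhere, and Mir5107, which lies across an exon edge of Cd74, had 10.1 in CON 18 and at most 4.45 elsewhere. These values rest on 9 to 19 reads, were chosen after they were seen and were not tested.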
